A study of Homo sapiens with 6 samples.

Results

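The genes described here are 53 genes of the lysosome, of the proton pump that acidifies it (the V-ATPase) and of autophagy, taken from a list of symbols by function, with no measured value in the rule. This list and those of further genes were, however, chosen with earlier results of these data known. The shares called below therefore describe the lists and are no independent test. All 53 had a row in the deposited table of 16229 genes, and all 53 passed the filter on low counts, so they are 53 of the 12604 genes tested. By role they comprise 19 lysosomal hydrolases and their activators, 5 lysosomal membrane proteins, 12 V-ATPase subunits, 12 autophagy genes and 5 regulators. RNA sequencing was done on 6 libraries of wild-type cells labelled MC38, a colorectal cancer line, 3 of them grown with GCA for 24 h and 3 without it for the same time (CON). The series' title names glycocholic acid, a bile acid conjugated to glycine, which is how GCA is read here, and no dose is given in the sources used here. The samples' titles call the GCA libraries "fa", an abbreviation left unexplained, so their group rests on the treatment label. MC38 is known as a mouse line, yet the labels name human as the species and hg38 as the build, and the gene symbols are human. The extraction text also mentions heart tissue, and the molecule label (polyA) sits beside a kit for total RNA. Neither point could be resolved. Nothing says that the 3 libraries of a group came from separate cultures, so all p-values measure the spread between libraries, which may be technical.

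Lysosomes are acidic organelles in which hydrolases break down proteins, glycans, glycolipids and lipids delivered by endocytosis and autophagy. The V-ATPase pumps protons inward through its membrane domain (V0), driven by ATP hydrolysis in its cytosolic domain (V1). In autophagy a double membrane carrying lipid-linked LC3 and GABARAP proteins encloses cargo and fuses with the lysosome, and the transcription factors TFEB, TFE3 and MITF, held in the cytoplasm by mTORC1 through the Rag GTPases and folliculin, switch on many of these genes in human cells.

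Total counts ran from 18057453 to 20531612 per library, and the floor of 3 counts lay between 0.146 and 0.166 in CPM, the read count of a gene relative to its library's scaled total. CON 1 stood apart from the other CON libraries, with a chi-square per gene of 34.8 and 39.5 against CON 2 and CON 3, which differed from each other by 4.37. The GCA libraries differed from each other by 5.75 to 20. At an adjusted p of 0.05 (edgeR's quasi-likelihood test, Benjamini-Hochberg), 18.3% of tested genes were higher in GCA and 18.1% lower, 36.4% in all. The log2 fold change correlated with a gene's GC content across 12563 genes (r = 0.48, genes not being independent replicates). Values corrected per library for GC content and gene length are therefore given beside the calls of named genes that they end.

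More than any other role, hydrolase genes were called higher in GCA, 10 of 19 (52.6%). V1 pump genes and most genes of autophagosome formation did not pass the test. Nor did most of all tested genes, of which 36.4% were called. Differences between the roles were not tested. Of the 53 genes, 19 were called higher in GCA (35.8%, against 18.3% of all tested genes) and 2 lower (3.77%, against 18.1%). Counting both directions, 39.6% were called, which is close to the 36.4% of all tested genes. Their median log2 fold change of GCA over CON was 0.21, beside -0.04 over all tested genes, and 38 of the 53 fold changes were above 0. In 23 genes every GCA library lay above every CON library, and in 6 below, where 24.1% and 24.3% of all tested genes did so, 48.5% in all. Summed over the 53 genes, the level was 7112, 6867 and 7351 CPM in GCA 1 to 3, against 5128, 5061 and 5174 CPM in CON 1 to 3. Without CON 1 the calls were 24 higher and 8 lower, while 25.3% and 27.3% of all genes then tested were called. With the GC and length correction they were 19 higher and 4 lower, against 12.1% and 17% of tested genes, but 14 of the original 21 calls were among them. With the replicate number as a block they were 21 higher and 2 lower, against 20% and 21% of tested genes. Without replicate 1 of both groups they were 28 higher and 6 lower, against 29.3% of tested genes in each direction. In bulk libraries a change in the share of cells that use a gene and a change in RNA per cell cannot be told apart.

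**Figure D1:**
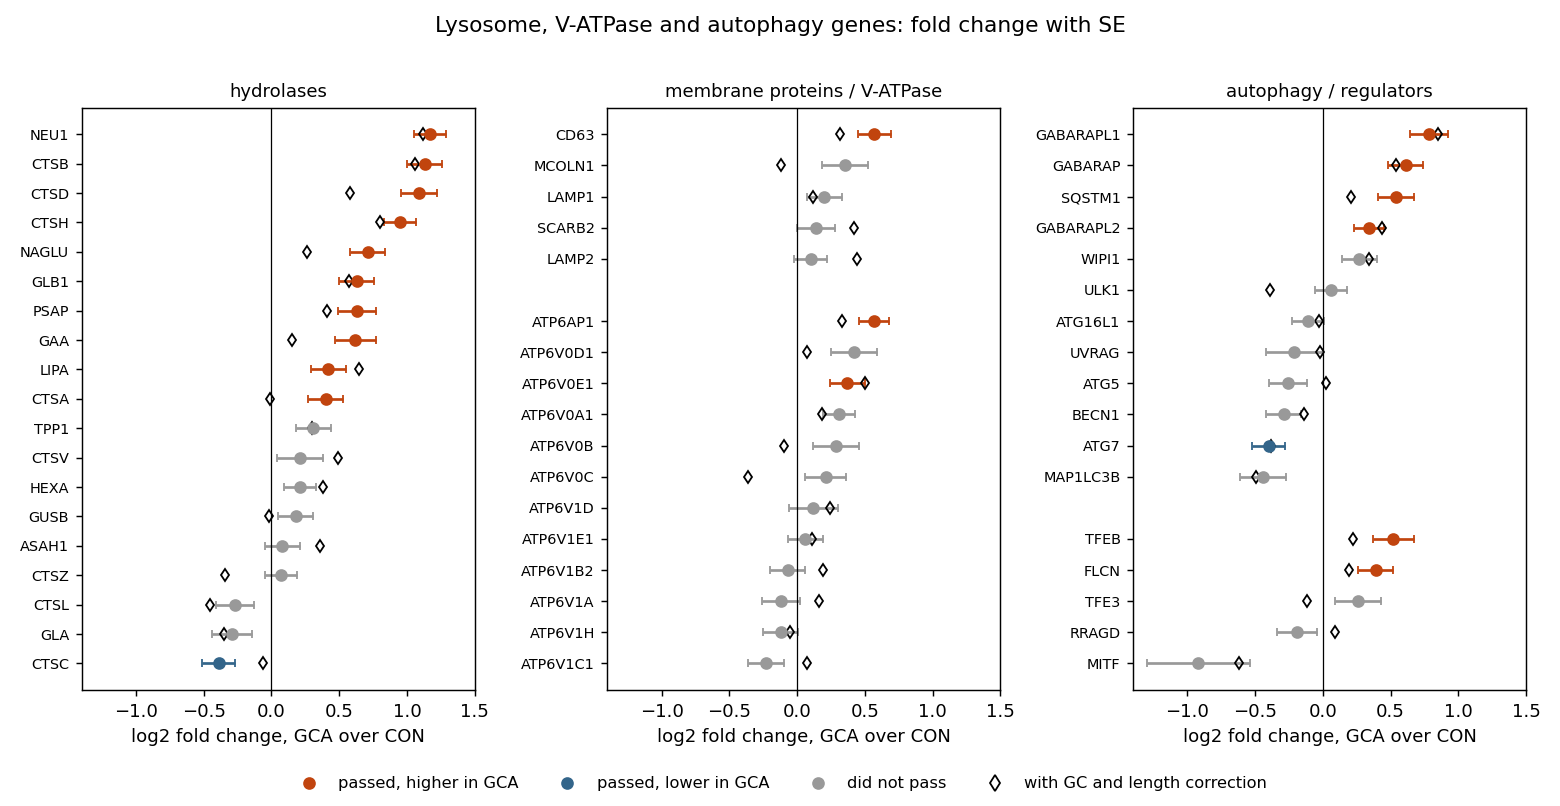
Log2 fold change of GCA over CON for each of the 53 genes, grouped by role, with its standard error (edgeR, n = 3 libraries per group), coloured where the gene passed an adjusted p of 0.05 and grey where it did not, and open diamonds for the value with the GC and length correction. The highest point is NEU1 at 1.17 and the lowest MITF at -0.92, which did not pass the threshold, and 10 of the 19 hydrolase genes are called higher.

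**Figure D2:**
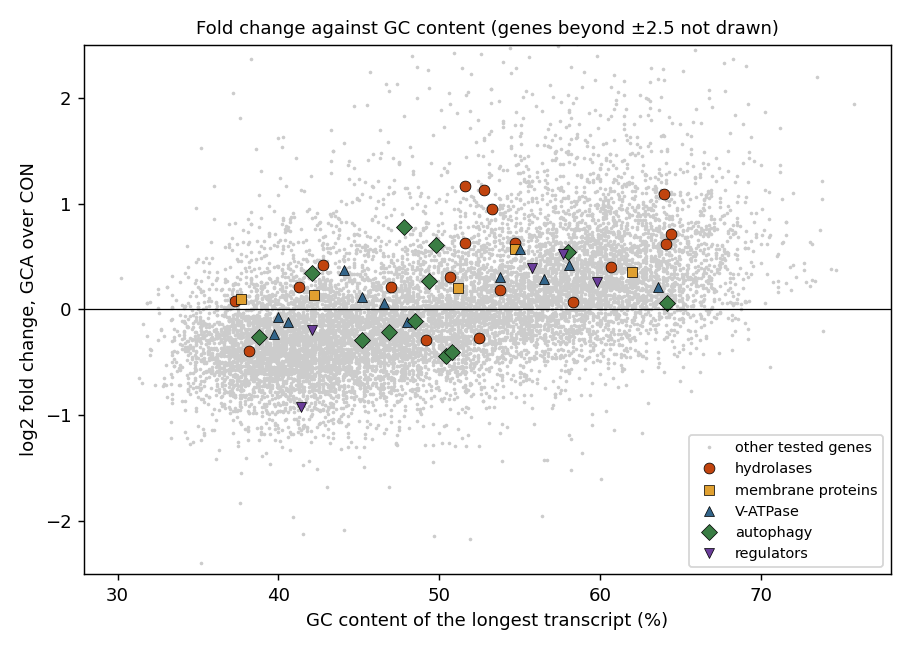
Log2 fold change of GCA over CON against the GC content of the longest annotated transcript for all tested genes with a GC value, with the 53 genes marked by role and genes beyond the axis range left out of the drawing. The fold change rises with GC content (r = 0.48 over 12563 genes), and the median GC content is 50.7% for the 53 genes and 49.3% for tested genes.

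Promoters of 4 called genes are shown because they carry CACGTG, the core of the CLEAR element through which TFEB is known to act on lysosomal genes. They are those of the called genes with this motif that had the lowest p among the chromosomes considered. Each sequence is the 250 bases before the annotated start in RefSeq (GRCh38.p14), written 5′ to 3′ on the gene's strand in lower case with CACGTG in capitals. NEU1 lies on the minus strand (chr6:31862822-31863071), as do CTSD (chr11:1763928-1764177) and CD63 (chr12:55729010-55729259), and GAA lies on the plus strand (chr17:80101331-80101580). The CD63 sequence lies inside the annotated gene (chromosome 12, 55723535 to 55730041), so its start is one within the gene.
NEU1: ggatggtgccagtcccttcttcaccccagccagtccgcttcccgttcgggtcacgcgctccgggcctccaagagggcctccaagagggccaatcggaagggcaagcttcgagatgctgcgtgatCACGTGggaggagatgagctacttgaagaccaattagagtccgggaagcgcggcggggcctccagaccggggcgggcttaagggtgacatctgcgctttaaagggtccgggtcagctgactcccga
CTSD: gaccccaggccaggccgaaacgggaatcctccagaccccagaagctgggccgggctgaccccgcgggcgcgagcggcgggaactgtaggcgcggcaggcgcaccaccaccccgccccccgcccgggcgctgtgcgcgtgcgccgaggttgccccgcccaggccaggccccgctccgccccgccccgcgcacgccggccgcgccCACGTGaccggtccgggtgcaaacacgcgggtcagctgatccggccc
CD63: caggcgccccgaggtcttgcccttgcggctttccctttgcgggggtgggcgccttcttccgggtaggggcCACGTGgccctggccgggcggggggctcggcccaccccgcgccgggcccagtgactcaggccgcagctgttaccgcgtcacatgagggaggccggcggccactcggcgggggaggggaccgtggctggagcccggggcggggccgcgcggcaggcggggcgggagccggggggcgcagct
GAA: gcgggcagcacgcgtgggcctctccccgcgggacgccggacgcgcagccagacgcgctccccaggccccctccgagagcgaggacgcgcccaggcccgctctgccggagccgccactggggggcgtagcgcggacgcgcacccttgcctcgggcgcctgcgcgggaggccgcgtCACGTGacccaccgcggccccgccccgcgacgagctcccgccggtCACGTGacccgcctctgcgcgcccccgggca
The motif began 126 bases before the start in NEU1, 47 in CTSD and 180 in CD63 (before the start within the gene). GAA had a pair, 76 and 31 bases before its start. Both copies in GAA stood in the longer palindrome GTCACGTGAC (the motif with GT before and AC after it), while the 10 bases centred on the motif were ATCACGTGGG in NEU1, CCCACGTGAC in CTSD and GCCACGTGGC in CD63.

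Of the 53 genes, 40 had a promoter of 300 bases in this RefSeq table (250 before the start and 50 after), and 9 of those (22.5%) held CACGTG, against 10.2% of 10155 tested genes and 7.43% of all 27305 promoters. The nested palindrome TCACGTGA, which contains CACGTG, stood in 5 of the 40 (12.5%), against 1.95% of tested genes and 1.04% of all promoters. GTCACGTGAC, which contains both, stood in 2 of the 40 (GAA and MCOLN1), against 0.798% and 0.381%. All of these motifs read the same on both strands. The 9 genes were CTSA, CTSD, NEU1, GAA, LAMP1, CD63, MCOLN1, ATP6V0B and ATP6V0D1, and LAMP1 held the most copies, 6. Among promoters of the genes called higher, 5 of 15 (33.3%) held CACGTG, against 4 of 25 (16%) of the others, and among all tested genes called higher 8.66% did. None of the 11 autophagy promoters or the 4 regulator promoters in the table held it. A match describes these letters only and shows no binding.

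Among the 19 hydrolase genes, 10 were called higher in GCA (52.6%) and 1 lower (5.26%), against 18.3% and 18.1% of all tested genes. Their median log2 fold change was 0.40. Summed, they stood at 3272, 3055 and 3404 CPM in GCA 1 to 3, against 1859, 2133 and 2143 CPM in CON 1 to 3, without overlap. Most of each sum came from the abundant genes PSAP, CTSB, CTSD and GAA, all called higher. Without CON 1 the calls were 10 higher and 3 lower, with CTSL (-0.41, adjusted p = 0.00288) and GLA (-0.35, adjusted p = 0.0444) added to the falls. With the GC and length correction they were 10 higher and 1 lower, a set that had lost CTSA, CTSC, GAA and NAGLU and gained ASAH1, CTSV and HEXA as higher and CTSZ as lower.

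The sialidase gene NEU1 had the highest fold change of all 53 genes. Its enzyme, which cleaves terminal sialic acids from glycans, works in a complex with protective protein/cathepsin A (CTSA) and beta-galactosidase (GLB1). NEU1 (chromosome 6, 31857659 to 31862821, GRCh38.p14) stood at 57.7, 66.2 and 69.6 CPM in GCA, against 29.5, 29 and 27.2 CPM in CON (log2 fold change 1.17 ± 0.12, SE; adjusted p = 2.71e-05). GLB1 stood at 65.3, 57.7 and 64.2 CPM in GCA, against 33.1, 42.1 and 45.7 CPM in CON (0.63 ± 0.13, adjusted p = 0.00354). Neither gene's groups overlapped, and CON 1 was the lowest CON library for GLB1 but the highest for NEU1. The partner gene CTSA stood at 184, 136 and 149 CPM in GCA, against 128, 117 and 111 CPM in CON (0.40 ± 0.13, adjusted p = 0.0343). This smaller rise was absent under the GC and length correction, where CTSA was at -0.01 (adjusted p = 0.944). It also missed the threshold when GCA 1, GCA 3, CON 2 or CON 3 was left out. In addition, 28.5% of the exonic bases of CTSA are overlapped by genes on the other strand, PLTP and NEURL2 among them, and the strand setting of the counting is not given.

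Cathepsins are the lysosomal proteases, and 4 of the 8 cathepsin genes rose while 1 fell, beside 18.3% and 18.1% of all tested genes. CTSB, an abundant cysteine cathepsin, stood at 602, 627 and 670 CPM in GCA, against 258, 302 and 309 CPM in CON (1.13 ± 0.13, adjusted p = 6.17e-05). CTSD, the main aspartic protease of lysosomes, stood at 434, 370 and 447 CPM in GCA, against 219, 187 and 180 CPM in CON (1.09 ± 0.13, adjusted p = 9.82e-05). The aminopeptidase gene CTSH stood at 65.6, 74 and 79 CPM in GCA, against 34.2, 39.6 and 39.5 CPM in CON (0.95 ± 0.12, adjusted p = 0.000147). In these 3 genes the lowest GCA library was well above the highest CON library, and each call held in all 16 alternative settings, although CTSD was lower, at 0.58, with the GC and length correction. CTSC, which activates granule serine proteases of immune cells, went the other way, with 32, 32.8 and 33.8 CPM in GCA, against 38.3, 44.3 and 46.9 CPM in CON (-0.39 ± 0.12, adjusted p = 0.0216). Corrected for GC content and length it was at -0.06 (adjusted p = 0.67), and leaving out any library other than CON 1 also ended its call. The remaining cathepsins did not pass the test: CTSL was at -0.27, CTSV at 0.21 and CTSZ at 0.07. Counts of CTSL could share reads with 5 named pseudogenes, and CTSD shares 41.7% of its exonic bases with an overlapping annotated transcript on its own strand and 15.8% with one on the other strand.

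Among the 7 glycosidase genes, which take sugars off glycans, glycolipids and glycogen, 4 were called higher and none lower, beside 18.3% and 18.1% of all tested genes. Besides NEU1 and GLB1 these were NAGLU and GAA. NAGLU, which acts on heparan sulfate, stood at 53.2, 47.3 and 54.9 CPM in GCA, against 35.8, 30.5 and 28.7 CPM in CON (0.71 ± 0.13, adjusted p = 0.00113). The glycogen-degrading GAA stood at 339, 281 and 329 CPM in GCA, against 168, 218 and 233 CPM in CON (0.62 ± 0.15, adjusted p = 0.00594). Both sets of libraries were apart, but neither call remained with the GC and length correction, where NAGLU was at 0.26 (adjusted p = 0.103) and GAA at 0.15 (adjusted p = 0.451). HEXA (0.21), GUSB (0.18) and GLA (-0.29), the hexosaminidase alpha subunit, beta-glucuronidase and alpha-galactosidase genes, did not pass the test. With the GC and length correction 3 of the 7 were called higher, HEXA (0.38, adjusted p = 0.0168) among them, beside 12.1% of all tested genes. GUSB has 10 named pseudogenes with which reads could be shared.

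The remaining hydrolase calls were PSAP and LIPA. PSAP encodes the precursor of the saposins, which present glycolipids to hydrolases. It stood at 972, 926 and 1057 CPM in GCA, against 528, 688 and 695 CPM in CON (0.63 ± 0.14, adjusted p = 0.00506). LIPA, the lysosomal acid lipase gene, stood at 34.1, 41.4 and 40.4 CPM in GCA, against 25.7, 30.3 and 30.8 CPM in CON (0.42 ± 0.13, adjusted p = 0.0239). CON 1 was the lowest library for both, and GCA and CON did not overlap for either. LIPA missed the threshold when GCA 2 or GCA 3 was left out and when libraries were scaled by total count only. The ceramidase gene ASAH1 (0.08) and the peptidase gene TPP1 (0.31, adjusted p = 0.081) did not pass the test.

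**Figure D3:**
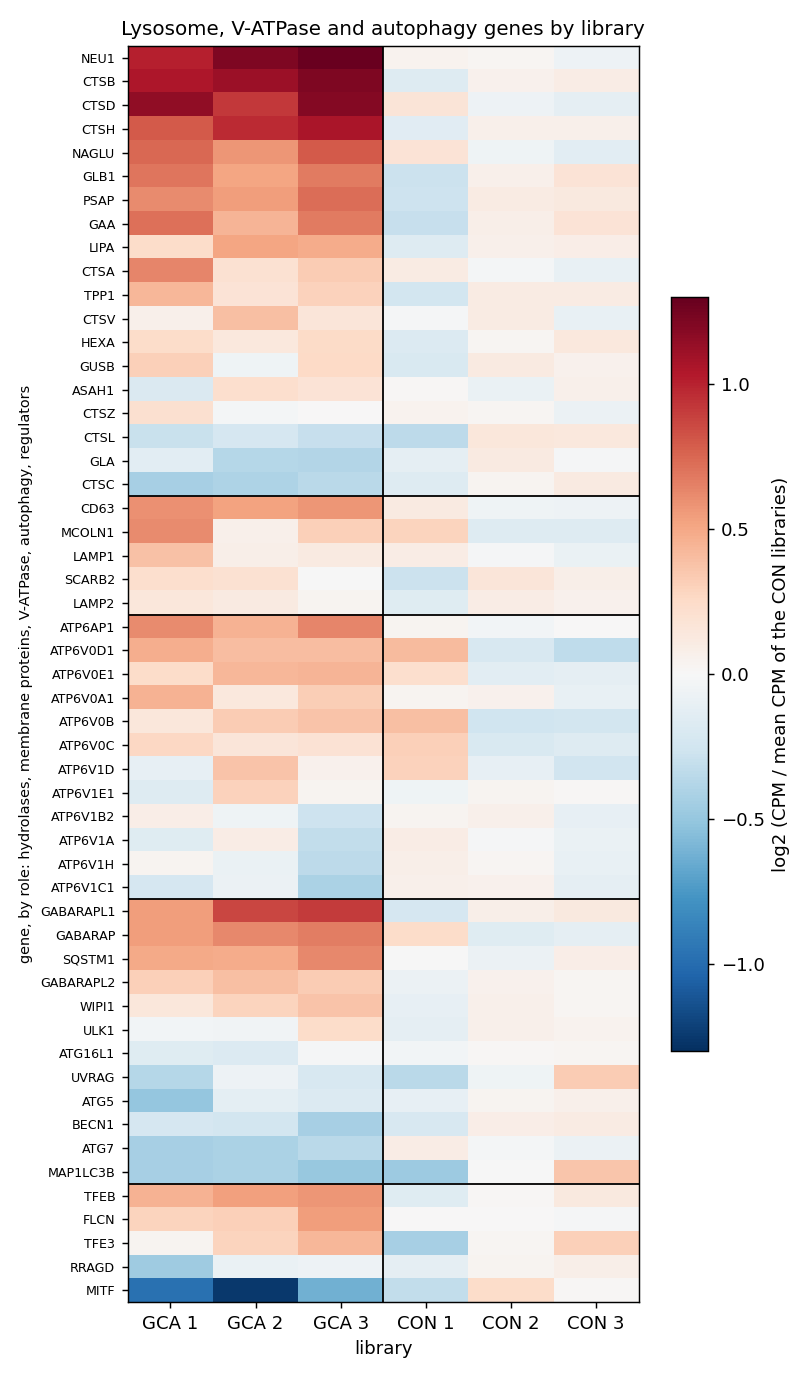
Level of each of the 53 genes in each library as log2 of CPM over the gene's mean CPM in the CON libraries (red above it, blue below), with GCA 1 to 3 in the left columns and CON 1 to 3 in the right ones, genes grouped by role. The rows of NEU1, CTSB, CTSD and CTSH separate the groups, while in ATP6V0B, ATP6V0C and ATP6V0D1 the CON 1 column resembles the GCA columns.

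Of the 5 membrane protein genes, only CD63 was called (20%, against 18.3% of all tested genes called higher), and all 5 fold changes were above 0. CD63, a tetraspanin of lysosomes and of exosome-forming late endosomes, stood at 415, 394 and 407 CPM in GCA, against 297, 264 and 261 CPM in CON (0.57 ± 0.12, adjusted p = 0.00328). The groups did not overlap. LAMP1 (0.20) and LAMP2 (0.10), which form the glycoprotein coat of the inner membrane face, the transport receptor gene SCARB2 (0.14) and the calcium channel MCOLN1 (0.35) did not pass the test. LAMP1, for example, stood at 303, 245 and 253 CPM in GCA, against 249, 230 and 220 CPM in CON, which overlap. With the replicate block MCOLN1 passed as well (adjusted p = 0.038), as it did without CON 1 (0.51, adjusted p = 0.00963). After correction for GC content and length 3 of the 5 were called higher, namely CD63, LAMP2 and SCARB2.

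Over the 12 V-ATPase genes, 2 were called higher (16.7%, against 18.3% of all tested genes) and none lower, with a median of 0.17. Summed, they stood at 1249, 1266 and 1262 CPM in GCA 1 to 3, against 1259, 971 and 956 CPM in CON 1 to 3. ATP6AP1, an accessory subunit needed for pump assembly and targeting, stood at 153, 137 and 155 CPM in GCA, against 102, 97.5 and 100 CPM in CON (0.57 ± 0.11, adjusted p = 0.00213). ATP6V0E1, a small V0 subunit, stood at 85.5, 97.5 and 98.2 CPM in GCA, against 84.4, 65.9 and 66.6 CPM in CON (0.37 ± 0.13, adjusted p = 0.0386). The nearest ATP6V0E1 libraries, GCA 1 and CON 1, nearly touched, and its call ended when GCA 2, GCA 3, CON 2 or CON 3 was left out. ATP6V0E1 also has 4 named pseudogenes.

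In 3 of the other V0 genes CON 1 overlapped GCA outright. ATP6V0D1, which joins the membrane and cytosolic domains, stood at 110, 105 and 105 CPM in GCA, against 106, 69 and 63.4 CPM in CON (0.42 ± 0.17, adjusted p = 0.065). ATP6V0B, a subunit of the proton-carrying ring, stood at 267, 304 and 312 CPM in GCA, against 318, 202 and 205 CPM in CON (0.29 ± 0.17, adjusted p = 0.205). For ATP6V0C, the main ring subunit, the values were 355, 329 and 336 CPM in GCA, against 364, 257 and 262 CPM in CON (0.21 ± 0.15, adjusted p = 0.284). In all of these CON 1 lay inside or above the GCA range and CON 2 and CON 3 below it. The membrane subunit gene ATP6V0A1 had 57.8, 46.7 and 53 CPM in GCA, against 43.3, 44.1 and 39.6 CPM in CON (0.31 ± 0.12, adjusted p = 0.0611), with no overlap. Without CON 1, 5 of the 5 V0 genes were called higher, beside 25.3% of all genes then tested. ATP6V0D1 was then at 0.68 (adjusted p = 6.03e-05), ATP6V0B at 0.53 (adjusted p = 0.000575), ATP6V0C at 0.39 (adjusted p = 0.00287) and ATP6V0A1 at 0.32 (adjusted p = 0.0263). With the replicate block ATP6V0D1 was called too (adjusted p = 0.021). After correction for GC content and length ATP6V0C was instead called lower at -0.36 (adjusted p = 0.0226), ATP6V0B was at -0.10 and ATP6V0D1 at 0.07, neither called. Of ATP6V0C, 72.1% of the exonic bases are shared with overlapping transcripts on its own strand.

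V1 genes gave no call. Their 6 log2 fold changes ran from -0.23 to 0.12, with a median of -0.09, and none was called without CON 1 either. Without replicate 1 of both groups ATP6V1D was called higher (adjusted p = 0.0119). ATP6V1A, which holds the catalytic sites, stood at 22.3, 26.7 and 20 CPM in GCA, against 26.6, 24.7 and 23.5 CPM in CON (-0.12 ± 0.14, adjusted p = 0.539). ATP6V1B2 (-0.07), ATP6V1C1 (-0.23), ATP6V1D (0.12), ATP6V1E1 (0.06) and ATP6V1H (-0.12), further parts of the rotary head, its stalks and its regulator, did not pass the test. Whether the V0 and V1 fold changes differ from each other was not tested.

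**Figure D4:**
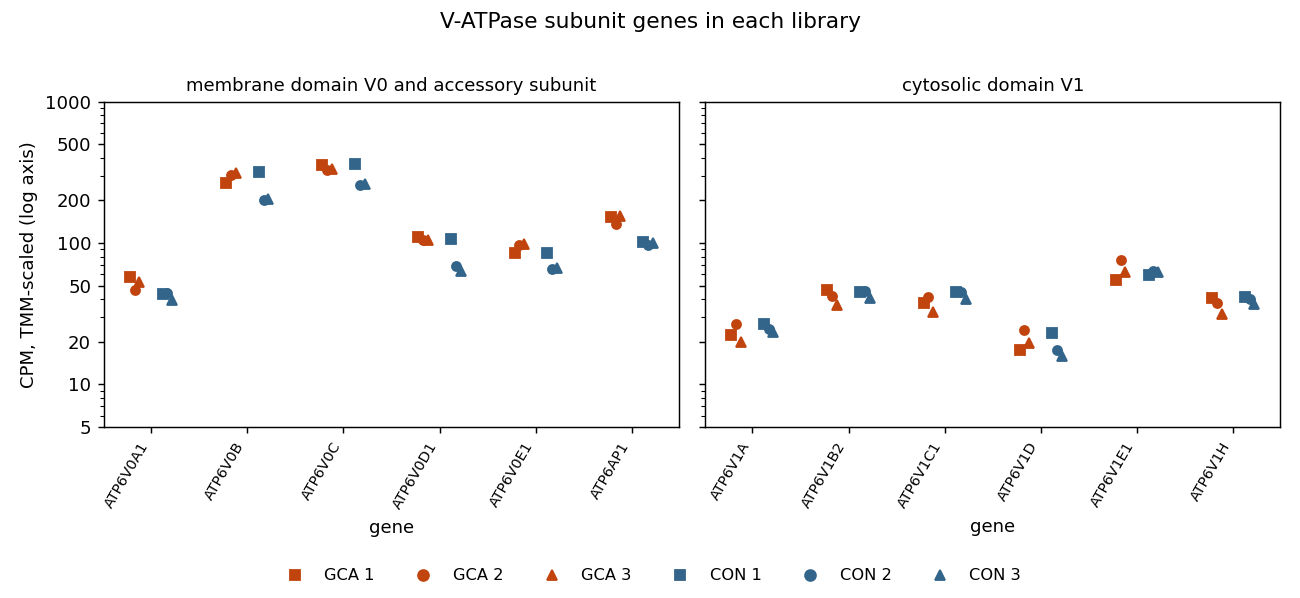
CPM of the 12 V-ATPase genes in each library on a log axis, with the V0 and accessory genes on the left and V1 genes on the right, GCA libraries left of CON libraries within each gene. For ATP6V0B, ATP6V0C and ATP6V0D1 the CON 1 square lies among or just above the GCA points and CON 2 and CON 3 lie below, and the V1 groups overlap.

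The 12 autophagy genes were split, with 4 called higher (33.3%), 1 called lower (8.33%) and a median of -0.03. Of all tested genes 18.3% were called higher and 18.1% lower. Counting both directions, 41.7% of the 12 were called, close to the 36.4% of all tested genes. The 4 that rose were the cargo receptor gene SQSTM1 and all 3 genes of the GABARAP subfamily, ubiquitin-like proteins that are linked to lipid on the autophagosome membrane and bind cargo receptors. GABARAPL1 (chromosome 12, 10212877 to 10223128) stood at 34.6, 43.4 and 44.6 CPM in GCA, against 20.4, 25 and 25.9 CPM in CON (0.78 ± 0.14, adjusted p = 0.00134). GABARAP stood at 291, 308 and 318 CPM in GCA, against 236, 179 and 185 CPM in CON (0.61 ± 0.13, adjusted p = 0.00406). Both calls held in all 16 alternative settings and neither gene's groups overlapped. GABARAPL2 had a smaller difference, with 59.5, 62.6 and 60 CPM in GCA, against 45.3, 49.6 and 48.7 CPM in CON (0.34 ± 0.11, adjusted p = 0.0279). It missed the threshold without GCA 2, GCA 3, CON 2 or CON 3, and when scaled by total count only. GABARAP shares 30.5% of its exonic bases with a transcript on its strand and 25.2% with one on the other strand.

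MAP1LC3B, the LC3 gene of the same family, did not follow its relatives. It stood at 94.7, 96.1 and 91 CPM in GCA, against 92, 127 and 164 CPM in CON (-0.44 ± 0.17, adjusted p = 0.0592). The GCA libraries lay close together near the CON 1 value, and CON 2 and CON 3 stood above them. It was called lower without CON 1 (-0.63, adjusted p = 0.000331), with DESeq2 (adjusted p = 0.0491) and without a filter on low counts. SQSTM1, which brings ubiquitinated cargo to LC3 and is itself degraded by autophagy, stood at 982, 975 and 1072 CPM in GCA, against 693, 659 and 737 CPM in CON (0.54 ± 0.13, adjusted p = 0.006). Its groups were apart, but corrected for GC content and length it was at 0.21 (adjusted p = 0.124), and 22% of its exonic bases are overlapped on the other strand by MGAT4B and MRNIP.

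Of the genes that start and extend the autophagosome, only ATG7 was called, and it was lower. ATG7 encodes the E1-like enzyme that activates LC3, GABARAP and ATG12 proteins for conjugation. It stood at 23.2, 23.6 and 24.7 CPM in GCA, against 33.6, 30.8 and 29.8 CPM in CON (-0.40 ± 0.12, adjusted p = 0.022), without overlap. The call ended when any library other than CON 1 was left out, and 18.1% of its exonic bases lie opposite VGLL4. The kinase gene ULK1 (0.06), the phosphoinositide reader WIPI1 (0.27), the class III PI3-kinase partners BECN1 (-0.29) and UVRAG (-0.21), and ATG5 (-0.26) and ATG16L1 (-0.11) of the LC3-conjugating complex did not pass the test. Without CON 1, BECN1 (-0.39, adjusted p = 0.00752) and ATG5 (-0.32, adjusted p = 0.0497) were called lower, so that 4 autophagy genes were then higher and 4 lower. Of all genes then tested, 25.3% were called higher and 27.3% lower. With the GC and length correction the counts were 4 higher, WIPI1 in place of SQSTM1, and 2 lower, ATG7 and ULK1, beside 12.1% and 17% of tested genes.

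**Figure D5:**
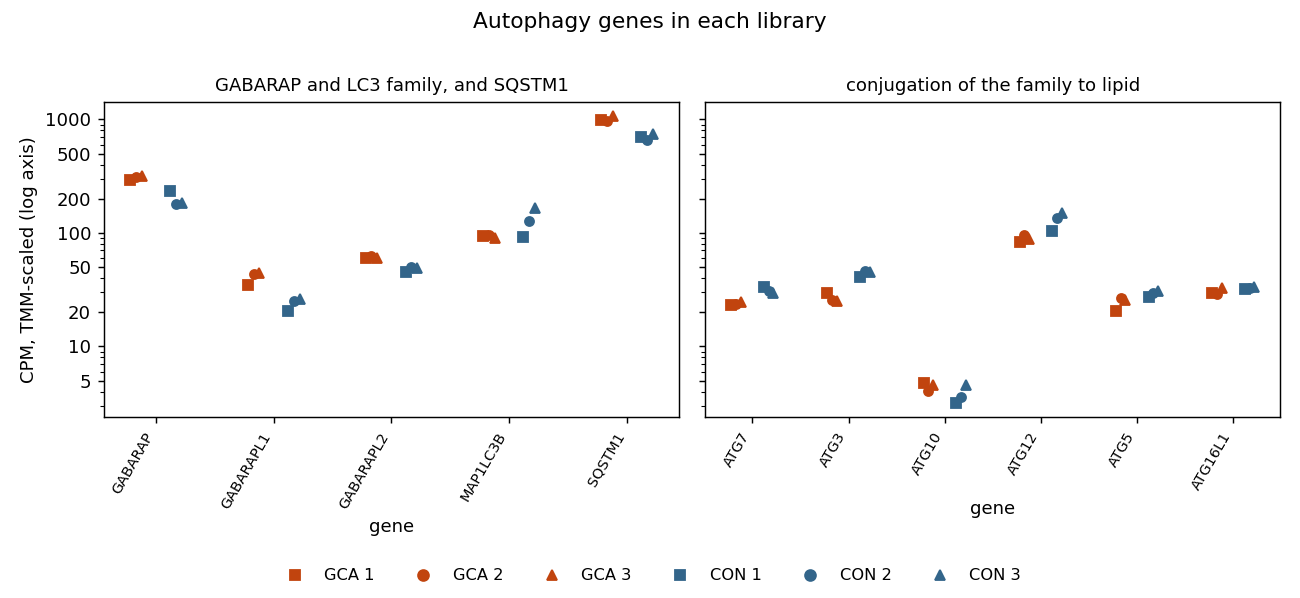
CPM in each library on a log axis, GCA libraries left of CON libraries within each gene, for the GABARAP and LC3 genes and SQSTM1 on the left and for genes that conjugate this family to lipid on the right. The 3 GABARAP genes and SQSTM1 lie higher in GCA, ATG7, ATG3 and ATG12 lie lower, and MAP1LC3B overlaps through CON 1.

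Among the 5 regulators, TFEB and FLCN were called higher (40%, against 18.3% of all tested genes) and none lower. TFEB, the transcription factor best known for driving lysosomal genes, stood at 13.1, 13.8 and 14.2 CPM in GCA, against 8.58, 9.65 and 10.4 CPM in CON (0.52 ± 0.15, adjusted p = 0.018). FLCN, whose protein folliculin activates RagC and RagD toward mTORC1, stood at 21.8, 22 and 25.9 CPM in GCA, against 17.9, 17.9 and 17.6 CPM in CON (0.39 ± 0.13, adjusted p = 0.0385). Neither gene's groups overlapped. With the GC and length correction no regulator was called, TFEB being at 0.22 (adjusted p = 0.234) and FLCN at 0.19 (adjusted p = 0.246). TFEB also lost its call without GCA 2 or GCA 3 and with total-count scaling, and FLCN under those settings, without CON 2 or CON 3, with upper-quartile scaling and without a filter.

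TFE3, the closest relative of TFEB, stood at 52.4, 62.4 and 68.8 CPM in GCA, against 37.8, 52 and 63.4 CPM in CON (0.26 ± 0.17, adjusted p = 0.25). MITF was near the limit of detection, with 10, 8 and 12 reads in GCA and 14, 22 and 19 reads in CON, or 0.496, 0.407 and 0.629 CPM against 0.78, 1.15 and 0.984 CPM (-0.92 ± 0.38, adjusted p = 0.0738). Its groups did not overlap and it passed the threshold without CON 1 (-1.06, adjusted p = 0.0419). RRAGD, a Rag GTPase gene known as a target of the TFEB family in human cells, stood at 13.4, 17.4 and 17.7 CPM in GCA, against 17.1, 18.9 and 19.5 CPM in CON (-0.19 ± 0.15, adjusted p = 0.333). These overlap. The counts measure RNA and not where these factors sit in the cell, which is how their activity is mainly set.

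Levels can be set beside each other between genes only per length, in FPKM. By that unit PSAP stood at 351 ± 21.9 FPKM in GCA, against 237 ± 49.1 FPKM in CON (SD, n = 3 each). SQSTM1 stood at 304 ± 15 FPKM in GCA, against 217 ± 18.8 FPKM in CON. These were among the most abundant of the 53 transcripts, as was ATP6V0B with 294 ± 24.1 FPKM in GCA and 246 ± 49.5 FPKM in CON, while NEU1, the gene with the highest fold change, was at 18.9 ± 1.8 FPKM in GCA, against 8.65 ± 0.478 FPKM in CON. Within the ubiquitin-like family the mean order was GABARAP (228 FPKM in GCA, 153 in CON), then GABARAPL2 (61.3 in GCA, 50.1 in CON) and MAP1LC3B (43.1 in GCA, 61 in CON), with GABARAPL1 lowest (17.4 in GCA, 10.5 in CON). The GABARAPL2 and MAP1LC3B means thus stood in opposite order in the groups. In the TFEB family TFE3 averaged 18.6 FPKM in GCA and 16.2 in CON, TFEB 3.92 in GCA and 2.83 in CON, and MITF 0.0798 in GCA and 0.158 in CON.

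Beyond these genes, 145 further symbols of the same pathways were looked up, of which 143 were listed in the table and 131 passed its filter on low counts. Of these, 36 were called higher (27.5%) and 11 lower (8.4%), against 18.3% and 18.1% of all tested genes, with a median of 0.19. With the GC and length correction the counts were 22 and 10. The share called either way, 35.9%, was close to the 36.4% of all tested genes.

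Among these lists the further hydrolases and cofactors had the most rises, with 16 of 26 called higher (61.5%) and none lower (median 0.42). Of all tested genes 18.3% and 18.1% were called. With the GC and length correction 8 were called higher, beside 12.1% of all tested genes. IDUA, which removes iduronic acid from heparan and dermatan sulfate, stood at 16.9, 17.6 and 29.2 CPM in GCA, against 5.01, 8.71 and 9.89 CPM in CON (1.43 ± 0.26, adjusted p = 0.00126). MAN2B1, the lysosomal alpha-mannosidase gene, stood at 152, 155 and 159 CPM in GCA, against 96.1, 90.5 and 98.4 CPM in CON (0.71 ± 0.11, adjusted p = 0.000465). SGSH, a heparan sulfate sulfatase gene, stood at 30.9, 32.3 and 37.5 CPM in GCA, against 21.6, 21.8 and 21.1 CPM in CON (0.64 ± 0.13, adjusted p = 0.00221). None of these groups overlapped, and the SGSH call ended with the GC and length correction, at 0.28 (adjusted p = 0.0663).

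Of 19 further membrane proteins and transporters 5 rose (26.3%) and 1 fell (5.26%), against 18.3% and 18.1% of all tested genes. The cholesterol-binding pair of the lysosome went in opposite directions: NPC1, the membrane protein, stood at 38.1, 35.5 and 38 CPM in GCA, against 41.7, 57.4 and 64.5 CPM in CON (-0.55 ± 0.15, adjusted p = 0.0127). NPC2, its soluble partner, named after its values were seen, stood at 115, 146 and 147 CPM in GCA, against 101, 95.1 and 96.9 CPM in CON (0.48 ± 0.13, adjusted p = 0.0108). LAPTM4A (0.55, adjusted p = 0.00392) and the lipid transporter gene ABCA2 (0.60, adjusted p = 0.00518) were higher, ABCA2 not with the GC and length correction (0.17). NPC1 missed the threshold without GCA 2 or CON 3, and NPC2 without GCA 2 or GCA 3. In delivery to the lysosome 4 of 12 rose (33.3%) and 2 fell (16.7%), against the same 18.3% and 18.1%. The rises included GNPTG (0.55), a subunit of the enzyme that makes the mannose 6-phosphate tag, and the HOPS tethering gene VPS18 (0.53). The falls included M6PR, a receptor of that tag, with 70.7, 63.6 and 67.5 CPM in GCA, against 79.8, 86.1 and 91.8 CPM in CON (-0.35 ± 0.11, adjusted p = 0.0288). None of these 3 calls in delivery held with the GC and length correction, where GNPTG was at 0.24, VPS18 at 0.15 and M6PR at -0.26, and M6PR also missed the threshold without GCA 2, GCA 3, CON 2 or CON 3.

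Further V-ATPase subunits gave 1 rise and 1 fall among 9 tested, both in V0 (11.1% each way, against 18.3% and 18.1% of all tested genes). The V1 gene ATP6V1F stood at 178, 181 and 191 CPM in GCA, against 192, 132 and 141 CPM in CON (0.24, adjusted p = 0.206). Without CON 1 it was called higher (0.42, adjusted p = 0.00167) and ATP6V1E2 lower (-0.40, adjusted p = 0.039). Both were named after their values were seen. ATP6V0E2, a paralog of ATP6V0E1, stood at 99.6, 95.1 and 92.4 CPM in GCA, against 75.9, 51.3 and 45.8 CPM in CON (0.73 ± 0.16, adjusted p = 0.00468). ATP6V0A2, a paralog of ATP6V0A1 known from the Golgi and endosomes, stood at 10.7, 11 and 9.58 CPM in GCA, against 14.5, 14.2 and 14.1 CPM in CON (-0.45 ± 0.15, adjusted p = 0.0289), a call that ended with the GC and length correction (-0.24) and without any library other than CON 1. Further autophagy genes were called equally often in each direction, 5 higher and 5 lower of 38, with a median of -0.01. That is 13.2% each way, against 18.3% and 18.1% of all tested genes. ATG2A, a lipid transfer protein gene of the growing membrane, stood at 66.2, 62.5 and 71.5 CPM in GCA, against 44.5, 36.4 and 35.3 CPM in CON (0.78 ± 0.13, adjusted p = 0.000598). ATG3, the E2-like enzyme that acts after ATG7, stood at 29.3, 25.5 and 24.9 CPM in GCA, against 40.7, 46.3 and 45.6 CPM in CON (-0.73 ± 0.12, adjusted p = 0.000728). Neither gene's groups overlapped. TECPR1 was higher (0.63, adjusted p = 0.00385), though not with the GC and length correction (0.23). ATG16L2 (0.71, adjusted p = 0.0151), VAMP8 (0.60, adjusted p = 0.0053) and OPTN also rose, named after their values were seen. The ATG16L2 call ended with that correction (0.36) and without GCA 3, and VAMP8 held in all 16 alternative settings. The others that fell were ATG12 (-0.54), RB1CC1 (-0.87), EPG5 (-0.49) and BNIP3 (-0.42), named after their values were seen. ATG7, ATG3 and ATG12 work in conjugation, as do ATG10 (0.23), ATG5 (-0.26) and ATG16L1 (-0.11), which did not pass the test. Of the 5 falls in this list, ATG3 held in all 16 alternative settings, and BNIP3 missed the threshold without GCA 2 or CON 2. ATG12 (-0.22 with the GC and length correction) also missed it without GCA 1, GCA 3 or CON 3, and EPG5 (-0.27 with that correction) without those libraries or CON 2. The groups of RB1CC1 overlapped, with 7.54, 13 and 10.8 CPM in GCA, against 8.69, 21.8 and 26.6 CPM in CON. Its call was lost with DESeq2 (adjusted p = 0.18), total-count or upper-quartile scaling, the stricter filter, the GC and length correction (-0.49), and without any library other than CON 1.

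Among genes of mTORC1, the kinase complex that senses nutrients at the lysosome, and of its regulators, 3 of 21 were called higher and 2 lower. That is 14.3% and 9.52%, against 18.3% and 18.1% of all tested genes. MTOR stood at 67.1, 52.2 and 40.9 CPM in GCA, against 75.8, 79.4 and 75.8 CPM in CON (-0.53 ± 0.16, adjusted p = 0.0195). RRAGA (0.35, adjusted p = 0.0247) and the Ragulator gene LAMTOR2 (0.40, adjusted p = 0.0364) were higher, neither with the GC and length correction, where RRAGA was at 0.19 and LAMTOR2 at 0.07, nor without any library other than CON 1. The MTOR call ended without GCA 2, GCA 3 or CON 2. The other lower call was TSC1 (-0.42, adjusted p = 0.0384), named after its values were seen. That call ended with the GC and length correction (-0.30) and without any library other than CON 1. Of 6 tested cathepsin inhibitors 2 were higher (33.3%) and none lower, against 18.3% and 18.1% of all tested genes. Cystatin C (CST3) stood at 268, 293 and 300 CPM in GCA, against 208, 184 and 196 CPM in CON (0.55 ± 0.12, adjusted p = 0.00372). CSTB, which inhibits cysteine cathepsins in the cytosol, was called at 0.37 (adjusted p = 0.0359) but was at -0.01 with the GC and length correction, and it missed the threshold without GCA 2, GCA 3, CON 2 or CON 3.

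Macrophages and other leukocytes are rich in lysosomes, so their markers were read in the same libraries. The 11 leukocyte markers with a row were all below the filter. They summed to 1.58 to 2.48 CPM in GCA and 1.5 to 2.02 CPM in CON. LYZ was at 0.419 to 0.595 CPM in GCA and 0.259 to 0.365 CPM in CON. ITGAM averaged 0.389 CPM in GCA and 0.496 CPM in CON, and CSF1R 0.441 CPM in GCA and 0.439 CPM in CON. Osteoclast markers summed to at most 0.844 CPM in GCA and 0.261 CPM in CON. Of the 13 colorectal epithelial markers, 4 of the 9 tested were higher in GCA (44.4%, against 18.3% of all tested genes). The sum of the 13 ran from 11134 to 12705 CPM in GCA and from 7921 to 10113 CPM in CON. It was led by KRT8 (6306, 7168 and 7507 CPM in GCA, against 5867, 4403 and 4600 CPM in CON). Most of the rest of that sum came from the keratin genes KRT18 and KRT19. The KRT8 call (0.50) ended with the GC and length correction (0.20, adjusted p = 0.24). CDX2 was detected at 34.6 to 38.3 CPM in GCA and 28.6 to 35.2 CPM in CON, but the intestinal markers CDX1, CDH17, GPA33 and CEACAM5 were below the filter. The tested markers KRT20, LGALS4 and VIL1 were low, with means of 1.92, 1.91 and 0.733 CPM in GCA. In CON their means were 0.916, 2.38 and 0.606 CPM. Fibroblast markers summed to 21.6 to 25.1 CPM in GCA and 20.2 to 22.8 CPM in CON, led by COL1A1 (0.44). The other tested fibroblast marker, ACTA2, went the other way (-0.30, adjusted p = 0.193), with means of 8.33 CPM in GCA and 10.3 CPM in CON. Endothelial markers summed to 2.08 to 2.65 CPM in GCA and 0.78 to 1.36 CPM in CON, led by VWF (1.43). Cardiomyocyte markers, nearly all of it TNNI3 (0.68), summed to 37.2 to 42.4 CPM in GCA and 23.5 to 26.8 CPM in CON, and erythroid markers to 13.8 to 16 CPM in GCA and 11.3 to 13.1 CPM in CON, led by HBB. Melanocyte markers, nearly all PMEL (1.34), summed to 12 to 14.5 CPM in GCA and 3.79 to 6.89 CPM in CON. Corrected for GC content and length, TNNI3 was at 0.16 (adjusted p = 0.319) and COL1A1 at 0.06 (adjusted p = 0.728), so neither call held. The part of any such cells in the results was not tested.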

How the data were processed

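RNA-seq of 3 GCA and 3 CON libraries was deposited by the authors as raw counts per gene and as FPKM. Per the submitters' processing notes the tools were fastp 0.20.1, HISAT2 2.2.1.0 and HTSeq 0.11.2 with hg38. The role of each tool, the annotation release and the strand setting were not stated in the labels. The authors' deposited FPKM equals count over total count and a single gene length for 16229 of 16229 genes (relative tolerance 1e-09) and was used only to set levels of different genes side by side.

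Counts were tested with edgeR 4.0.16 in R 4.3.3: TMM, filterByExpr (minimum count 10, minimum total 15), glmQLFit, glmQLFTest, Benjamini-Hochberg over 12604 genes, threshold 0.05. The standard error is the log2 fold change divided by the square root of F. CPM uses TMM-scaled library sizes. The code was tested on simulated data. GC content came from the longest GENCODE 29 transcript (99.2% of genes) and entered, with gene length, as natural splines of 5 degrees of freedom per library. Overlaps between genes are from GENCODE 29, promoters from RefSeq on GRCh38.p14.

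The genes and lists were chosen with earlier results of these data known. Values in every library were given for each called gene, the regulators and the GABARAP and LC3 genes. For the further lists, up to 3 called genes with the lowest p were named. For most marker lists the gene with the highest mean CPM in GCA was named, with some others. Promoters are those of the 4 called genes with the lowest p that hold CACGTG, chromosome 8 left out. Some genes of the lists are not reported here by name. Protein sequences were not used here.

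Replicate numbers come from the sample titles. Deviations of same-numbered GCA and CON libraries correlated across genes at 0.206, 0.137 and 0.104 (other pairs -0.172 to 0.0954). All being over 0.1, the numbers were used as a block in alternative fits. The margin was narrow (0.104 against 0.0954), so whether the libraries are paired was not settled. The main fit has no block, and the blocked value is given where it changes a call.

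Alternatives were DESeq2 1.42.0, DESeq2's size factors, total counts or upper quartile for scaling, no filter, a stricter filter (1 CPM in 3 libraries), the replicate block, the GC and length correction alone or with the block, leaving out each library, and leaving out replicate 1 of both groups.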

Additional observations from a re-analysis of the deposited data

How the results depend on the processing

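Across the 16 alternatives, 10 of the 21 calls among the lysosome, V-ATPase and autophagy genes held in all: ATP6AP1, CD63, CTSB, CTSD, CTSH, GABARAP, GABARAPL1, GLB1, NEU1 and PSAP. Higher calls among the 53 genes stayed within 1.5 times of 19 in every alternative, from 13 to 24 on leaving out 1 library and 28 without replicate 1 of both groups. Lower calls were 2, but 4 with the GC and length correction, 5 with the replicate block and that correction, 0 to 8 on leaving out 1 library (8 without CON 1) and 6 without replicate 1. With the replicate block alone, which treats equal numbers as pairs, calls among the 53 genes were 21 higher and 2 lower. ATP6V0D1 and MCOLN1 were added. Among further genes the block gave 38 higher and 12 lower, adding SLC17A5, DEPTOR, TSC2 and TAX1BP1 and losing GM2A. Further pathway genes called higher were 36, but 22 with the GC and length correction, 19 to 47 without 1 library and 57 without replicate 1. Those called lower were 11, but 3 to 23 without 1 library and 28 without replicate 1. Over all tested genes, higher calls were 2307, but 1519 with the GC and length correction, 1493 to 3225 without 1 library and 3710 without replicate 1. Lower calls were 2277, but 1128 to 3482 without 1 library and 3709 without replicate 1. The causes were not tested.

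Among the called genes named by the rule, the fold change reversed for CTSA (0.40) at -0.01 with the GC and length correction and -0.02 with the block and that correction. CSTB (0.37) was at -0.01 in both. With the GC and length correction the further called genes DPP7 (0.35) and PLEKHM1 (0.32) were at -0.22 and -0.01, neither called, and ATP6V0C, not called at 0.21, was called lower at -0.36. The other scalings moved the median of all tested genes between -0.09 and -0.03. At 18057453 or more counts per library depth limits MITF, with 8 to 22 reads, more than any other of the 53 genes. Floors cover counting error only.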

Other observations

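Besides SQSTM1, given above, other receptors that tie cargo to the autophagosome had these values. OPTN, a receptor for mitochondria and bacteria, stood at 16.5, 18.7 and 17.6 CPM in GCA, against 9.47, 13.5 and 13.5 CPM in CON (log2 fold change 0.53 ± 0.17, SE; adjusted p = 0.0245 in edgeR). BNIP3, a mitophagy receptor induced by low oxygen, stood at 41.2, 40.2 and 45.9 CPM in GCA, against 57.5, 57.2 and 55.5 CPM in CON (-0.42 ± 0.11, adjusted p = 0.012). NBR1 (0.01), CALCOCO2 (-0.32), TAX1BP1 (-0.30), BNIP3L (0.20) and FUNDC1 (0.23) did not pass the test, but with the replicate block TAX1BP1 did (adjusted p = 0.0457). The OPTN call ended without GCA 2 or GCA 3 and with total-count scaling, and that of BNIP3 without GCA 2 or CON 2. These genes were singled out after their values were seen.

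PMEL, the fibril protein of melanosomes, which are organelles related to lysosomes, stood at 11.9, 13.4 and 14.5 CPM in GCA, against 3.73, 5.06 and 6.83 CPM in CON (1.34 ± 0.21, adjusted p = 0.000527). MITF, known to drive PMEL in melanocytes, was at 0.407 to 0.629 CPM in GCA and 0.78 to 1.15 CPM in CON. The remaining melanocyte markers with a row were below the filter.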
